A study of Mus musculus with 2 samples.

Results

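Cholesterol and fatty acid synthesis genes were examined here as a group of 29, comprising the enzymes of the mevalonate and sterol pathways, the proteins that control them and the enzymes that build fatty acids. They were found by symbol in a table of ribosome footprint counts from mouse lung fibroblasts, which held 27 of the 29 among its 14886 protein-coding genes. Ribosome profiling sequences the mRNA stretches that ribosomes protect from nuclease, so a gene's count depends on its mRNA and on the ribosomes sitting on it, and a lower count cannot be told apart from fewer cells that use the gene. By its title the study asked how rosmarinic acid eases fibrosis of the irradiated lung, through the change of fibroblasts into myofibroblasts, and its design text gives ribosome profiling the task of finding target mRNAs. Of the 2 libraries, 1 is labelled IR and 1 NC, both from cells described as mouse lung fibroblasts and treated with cycloheximide before lysis. The labels spell out neither abbreviation and give no dose, time, strain, sex, age or passage, nor do they say whether rosmarinic acid was added.

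Cholesterol is built from acetyl-CoA through mevalonate, farnesyl pyrophosphate and squalene, whereas fatty acids are built from the same precursor by carboxylation, chain assembly and desaturation. Both routes are driven by the SREBP transcription factors, which stay in the endoplasmic reticulum while sterols are plentiful and are carried by their escort Scap to the Golgi for cleavage when sterols run low. Fibroblasts make their own sterols as well as taking them up from lipoproteins, and in the lung the epithelial cells that make surfactant are heavy users of fatty acid synthesis.

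Counts totalled 888835 in IR and 695446 in NC. TMM scaling brought these to effective sizes of 791008 and 781455, so raw counts can be read almost directly against each other. There was 1 library per group, so no replicate spread exists and no test between the conditions was possible. Each fold below is IR over NC with a 95% interval that covers counting error only, and PCR copies of a footprint would widen it. All 10 fibroblast markers had a mean of at least 20 counts, with summed counts of 11073 in IR and 8526 in NC. The interval of the fold lay wholly above 1 for 5 of them, wholly below 1 for 2, and held 1 for 3. Of all genes with such a mean, 23.5% lay above and 23.7% below. Markers of lipid-storing cells summed to 196 and 157 counts over 4 genes, and all IR counts were those of the lipid droplet protein gene Plin2, while Adipoq, Lpl and Pparg were at 0 in IR and at 4, 3 and 1 in NC. Alveolar epithelial markers summed to 103 and 54 counts over 7 genes, of which Abca3 held 73 and 27 (fold 2.67, 1.70 to 4.32), with Sftpd at 0 and 7, Sftpa1 at 2 and 0, Lamp3 at 0 and 1 and Epcam at 0 and 1. Leukocyte markers summed to 266 and 170 over 6 genes, of which Cd74 held 244 and 169. The other leukocyte markers summed to 22 and 1, a fold of 21.7 (3.51 to 897), with Ptprc at 8 and 0, Itgam at 6 and 0, Lyz2 at 4 and 0 and Cd68 at 3 and 0. Endothelial markers summed to 6954 and 2715 over 8 genes, and to 112 and 97 without Emcn, with Vwf at 37 and 15 and Tie1 at 21 and 53. The part of these other markers in the results below was not tested.

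The synthesis genes together took the same share of the unscaled totals, 1139 counts or 0.128% of IR and 889 counts or 0.128% of NC. After TMM scaling their sum was 1.27-fold higher in IR (1.16 to 1.38), and 1.15-fold (1.04 to 1.27) without Scd1, which held 19.8% of it. They were shallow: 17 of the 27 reached a mean of 20 counts, the limit used for ratios, and Scd1 alone reached a mean of 100. The log2 ratio of scaled counts, with a pseudocount of 1, had a median of 0.04 over the 17 genes (order-statistic 95% interval -0.14 to 0.66). The median over all 5989 genes above the same limit was -0.02 (-0.02 to 0.02), so the genes as a group lay near the middle of all genes. With every gene counted at least once in both libraries the median was 0.10 over 26 of the synthesis genes, against -0.01 over 11429 genes. The quartiles of the 17 ratios were -0.14 and 0.66, and those of all genes -0.54 and 0.51.

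Under TMM scaling single genes departed from that middle in both directions, in a balance that depends on the scaling, as given below. Of the 17 genes, 6 were at least 1.5-fold higher in IR (Hmgcs1, Sqle, Tm7sf2, Dhcr7, Srebf1 and Scd1), where 22.0% of all genes were, and 1 was at least 1.5-fold lower (Sc5d), where 22.9% of all genes were. Past 2-fold there was 1 gene higher, Tm7sf2, and 0 lower, against 11.3% and 11.4% of all genes. The interval of the fold lay wholly above 1 for 5 genes and wholly below 1 for 0, whereas 23.5% and 23.7% of all genes did so. Tm7sf2, Dhcr7 and Srebf1 passed the limit through their IR count alone and Sc5d through its NC count alone, so a difference was built into their selection. The other 13 had at least 20 counts in both libraries, and of these Hmgcs1, Sqle and Scd1 were at least 1.5-fold higher. The 22.0% covers all genes above the limit, also those that passed through 1 library alone, so it is not a like share for these 13. A share for genes with at least 20 counts in both libraries was not computed.

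**Figure D1:**
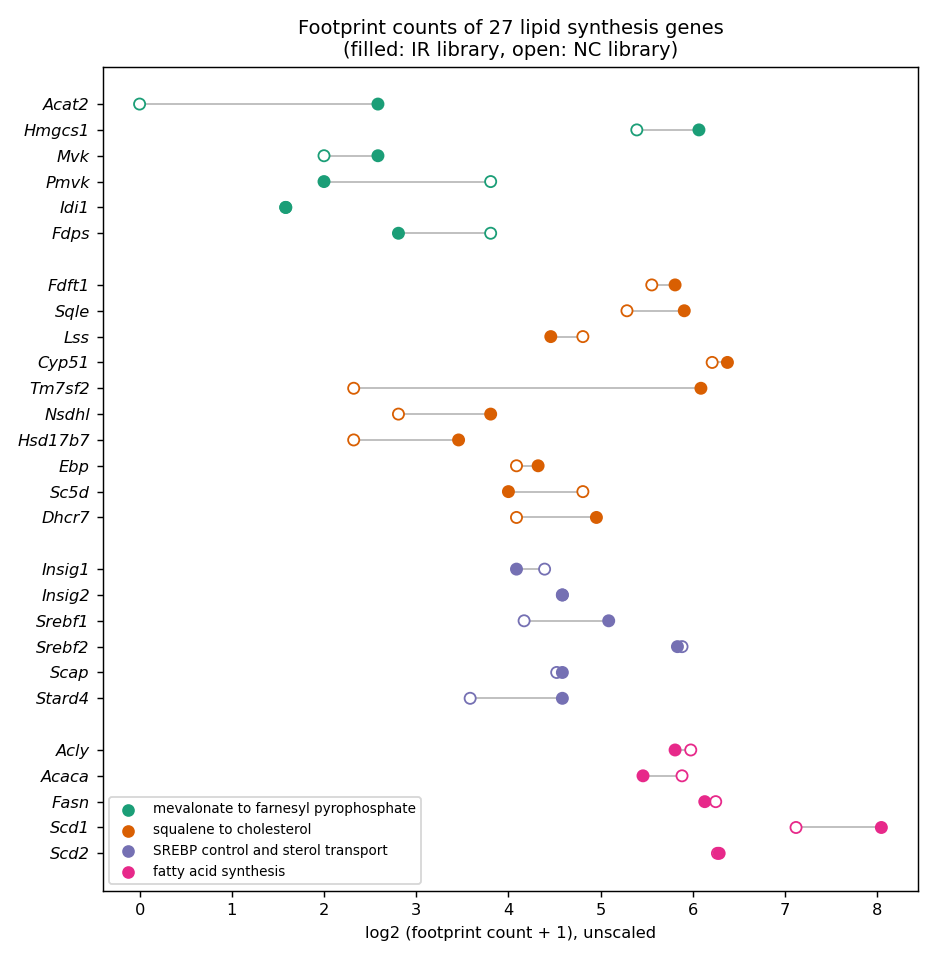
Unscaled footprint counts of the 27 genes, as log2 of the count plus 1, in the IR library (filled) and the NC library (open), grouped by role. Most pairs lie close together, Tm7sf2 has the widest gap among genes above the limit (67 and 4 counts), and Scd1 has the highest counts (263 and 138).

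The mevalonate stage turns acetyl-CoA into farnesyl pyrophosphate, and Hmgcs1, the cytosolic HMG-CoA synthase, makes the substrate of its committed step. Hmgcs1 lies on chromosome 13 at 119690462 to 119708086 (mm10, plus strand) and was counted 66 times in IR against 41 times in NC, a fold of 1.59 (1.06 to 2.41). Its log2 ratio of 0.66 stood above that of 80.1% of all genes, and it was the sole mevalonate gene above the limit. The other 5 were counted at 13 reads or fewer in each library. Pmvk, phosphomevalonate kinase, had 3 and 13 counts, a fold of 0.228 (0.0417 to 0.83). Fdps, which makes farnesyl pyrophosphate, had 6 and 13 (fold 0.456, 0.142 to 1.29). Pmvk was thus lower in IR beyond counting error, the opposite of Hmgcs1, on few reads. Mvk, mevalonate kinase, had 5 and 3 counts (fold 1.65, 0.32 to 10.6). Idi1, the isopentenyl isomerase, had 2 counts in each library (fold 0.988, 0.0716 to 13.6). Neither gene was measured well enough to place. Acat2, which joins acetyl-CoA units, had 5 counts in IR and 0 in NC, which is at least 1.65-fold higher against a limit of 3 counts per library, though the lower end of its counting interval was 0.905. Its near-copy Acat3 had 0 and 1 counts. The 6 mevalonate genes summed to 87 and 72 counts, a fold of 1.19 (0.864 to 1.65), of which Hmgcs1 held 67.3%. Without Hmgcs1 the sums were 21 and 31, a fold of 0.669 (0.366 to 1.20), so Hmgcs1 set the direction of the sum.

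The sterol stage runs from squalene synthase to cholesterol, and 7 of its 10 genes were above the limit. Tm7sf2, which encodes a sterol reductase of the step after lanosterol demethylation, lies on chromosome 19 at 6062821 to 6068373 (minus strand). The IR library held 67 of its footprints and NC held 4, a fold of 16.5 (6.17 to 62.5), and its log2 ratio of 3.75 exceeded that of 99.7% of all genes. Its coordinates overlap Vps51 on the same strand, which had 12 and 15 counts, a fold of 0.79 (0.338 to 1.81), so that neighbour did not share the excess. Sqle, squalene epoxidase, a rate-limiting enzyme of the sterol stage, had 59 and 38 counts (fold 1.53, 1.003 to 2.37). Dhcr7, which carries out a last reduction to cholesterol, had 30 and 16 (fold 1.85, 0.978 to 3.64). Both were higher in IR, and the interval of Sqle just cleared 1 while that of Dhcr7 held it. Sc5d, the desaturase that acts just before Dhcr7, went the other way with 15 and 27 counts (fold 0.549, 0.271 to 1.07). Adjacent steps of the pathway therefore had opposite point values, neither of them separated from 1 by counting error.

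The remaining sterol genes above the limit differed little. Cyp51, the lanosterol demethylase, had 82 and 73 counts (fold 1.11, 0.80 to 1.54). Fdft1, squalene synthase, had 55 and 46 (fold 1.18, 0.784 to 1.79), and it overlaps Ctsb on the opposite strand, a gene with 1063 and 691 counts. Lss, which closes the sterol ring, had 21 and 27 (fold 0.768, 0.413 to 1.41). Every one of these intervals held 1. Below the limit, Nsdhl, a sterol dehydrogenase, had 13 and 6 counts (fold 2.14, 0.759 to 6.87), Hsd17b7, a sterol ketone reductase, had 10 and 4 (fold 2.47, 0.712 to 10.8), and Ebp, the sterol isomerase, had 19 and 16 (fold 1.17, 0.571 to 2.44). The 10 sterol genes summed to 371 and 257 counts, a fold of 1.43 (1.21 to 1.68). Without Tm7sf2 the fold of the sum was 1.19 (1.001 to 1.41), and the median log2 ratio of the 7 genes above the limit was 0.24 (-0.82 to 3.75). A row under Sc4mol, an older name of the listed gene Msmo1 that the selection by symbol did not take, had 49 and 41 counts (fold 1.18, 0.764 to 1.83).

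**Figure D2:**
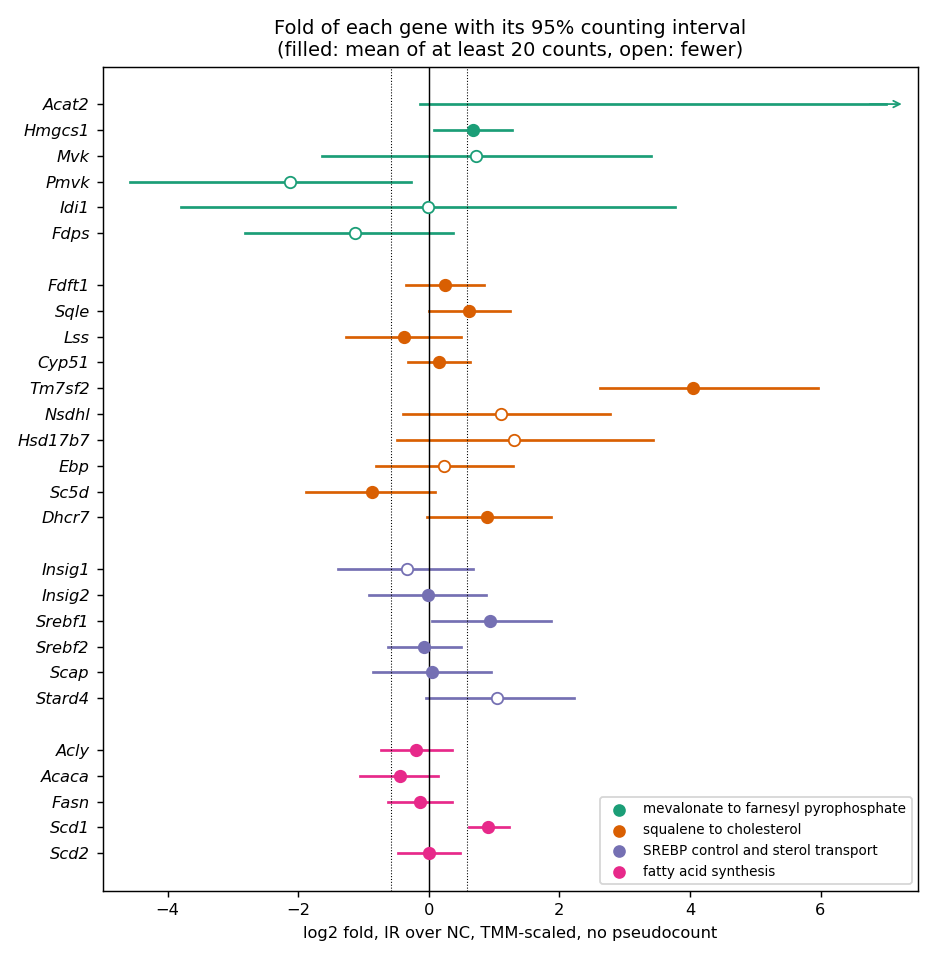
Fold of each gene, IR over NC on a log2 axis after TMM scaling, with its 95% counting interval; filled points had a mean of at least 20 counts, open points fewer, and dotted lines mark 1.5-fold. Acat2 has no point because its NC count is 0, and the intervals of Tm7sf2, Hmgcs1, Sqle, Srebf1 and Scd1 lie above 1 while that of Pmvk lies below it.

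Srebf1 and Stard4 had the highest folds of the 6 control genes. Srebf1 encodes the SREBP form that favours fatty acid genes and lies on chromosome 11 at 60199089 to 60222581 (minus strand). Its counts were 33 for IR and 17 for NC, giving a fold of 1.92 (1.04 to 3.67), and it overlaps Rai1 on the opposite strand, which had 32 and 30. Srebf2, the form that favours sterol genes, had 56 and 58 (fold 0.954, 0.649 to 1.40). Srebf1 made up 37.1% of the counts of the pair in IR (27.1% to 48.0%) and 22.7% in NC (13.8% to 33.8%). The ratio of the folds, which does not depend on scaling, was 2.01 (0.959 to 4.30), so at this depth the SREBP forms were not separated from each other. Scap, the sterol-sensing escort, had 23 and 22 counts (fold 1.03, 0.55 to 1.94). Insig2, which holds Scap in the endoplasmic reticulum, had 23 in each library (fold 0.988, 0.53 to 1.84). Its relative Insig1, itself a target of the SREBPs, had 16 and 20 (fold 0.79, 0.383 to 1.61). The ratio of the folds of Insig1 and Insig2 was 0.80 (0.304 to 2.10). Stard4, a cytosolic sterol carrier, had 23 and 11 (fold 2.07, 0.967 to 4.69). The 6 control genes summed to 174 and 151 counts, a fold of 1.14 (0.91 to 1.43).

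The fatty acid enzymes split between Scd1 and the rest. Scd1, the stearoyl-CoA desaturase that makes monounsaturated fatty acids, lies on chromosome 19 at 44394451 to 44407709 (minus strand). With 263 footprints in IR against 138 in NC, its fold was 1.88 (1.53 to 2.33), on the most reads of any synthesis gene. Scd2, its paralog on the same chromosome at 44293676 to 44306864, had 77 and 76 counts, a fold of 1.001 (0.719 to 1.39). Scd1 thus supplied 77.4% of the counts of the pair in IR (72.5% to 81.7%) and 64.5% in NC (57.7% to 70.9%). The ratio of the folds was 1.88 (1.27 to 2.79), so the desaturases differed from each other beyond counting error, whatever the scaling. How reads that match both paralogs were assigned is not given in the sources used here.

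The chain-building enzymes were level or slightly lower in IR. Fasn, fatty acid synthase, had 69 and 75 counts (fold 0.909, 0.646 to 1.28). Acly, which supplies cytosolic acetyl-CoA from citrate, had 55 and 62 (fold 0.876, 0.598 to 1.28). Acaca, acetyl-CoA carboxylase, had 43 and 58 (fold 0.732, 0.482 to 1.11). None of these intervals left out 1. The ratio of the folds of Scd1 and Fasn was 2.07 (1.38 to 3.11). Ratios of folds were not among the planned results, for these genes or for the paralog pairs. The 5 genes summed to 507 and 409 counts, a fold of 1.22 (1.07 to 1.40), and without Scd1 to 244 and 271, a fold of 0.889 (0.745 to 1.06), so the direction of the sum was that of Scd1. The median log2 ratio of the 5 genes was -0.14.

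**Figure D3:**
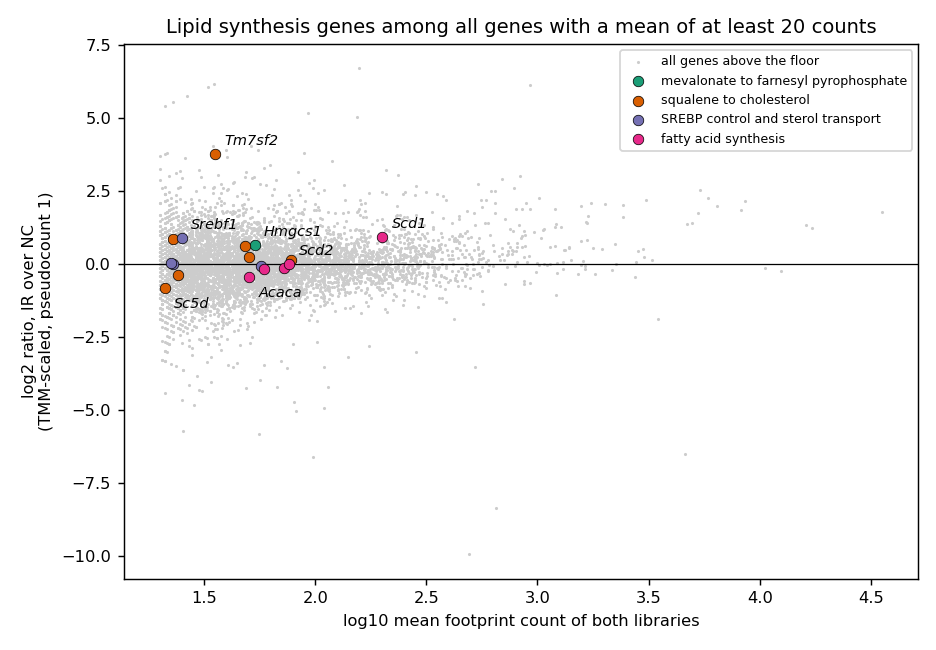
Log2 ratio of IR over NC (TMM-scaled, pseudocount 1) against log10 of the mean count for the 5989 genes that averaged at least 20 counts (grey), with the 17 synthesis genes above that limit coloured by role. Tm7sf2 sits at 3.75, Scd1 at 0.91 is the only coloured gene beyond a mean of 100 counts, and the others lie within the main body of genes.

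The share of genes past a fold depends on the scaling. The 10 genes with the highest counts held 20.3% of the IR library and 12.1% of NC, and scaling by total counts moved the median of all genes to -0.34. The median of the synthesis genes was then -0.28, a shift that this scaling gives to nearly every gene. By total counts 1 of the 17 was at least 1.5-fold higher and 3 lower, against 13.0% and 37.3% of all genes. Under that scaling Scd1 had a log2 ratio of 0.57.

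Neighbouring pathways were read from 5 further gene lists that exclude the synthesis genes. For sterol uptake, storage and efflux, 6 of 13 genes above the limit were at least 1.5-fold higher and 1 lower (22.0% and 22.9% of all genes), with a median log2 ratio of 0.57 (-0.46 to 1.39). Abcg1, a sterol exporter, had 53 and 19 counts (fold 2.76, 1.60 to 4.93). Npc2, the lysosomal cholesterol-binding protein, had 598 and 223 (fold 2.65, 2.27 to 3.10). At the other end Abca1, another sterol exporter, had 25 and 41 (fold 0.602, 0.351 to 1.01). The exporters Abcg1 and Abca1 had opposite directions.

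The proteins that cleave SREBPs or degrade sterol-regulated enzymes had 2 of 10 genes at least 1.5-fold higher and 2 lower (22.0% and 22.9% of all genes), with a median of 0.28 (-0.61 to 0.82). Erlin2, a membrane scaffold of sterol-regulated degradation, had 71 and 25 counts (fold 2.81, 1.76 to 4.62). Rnf139, a ubiquitin ligase of the endoplasmic reticulum, had 140 and 78 (fold 1.77, 1.33 to 2.37), and it overlaps Tatdn1. Aup1, a lipid droplet and degradation protein that overlaps Htra2, had 15 and 46 (fold 0.322, 0.167 to 0.588). These proteins lay on both sides beyond counting error, though Aup1 passed the limit through its NC count alone.

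Of the isoprenoid branch enzymes, which draw on the products of the mevalonate stage, 4 of 11 were above the limit, 2 past 1.5-fold in each direction (22.0% and 22.9% of all genes). Dhdds, which makes dolichol precursors, had 26 and 52 counts (fold 0.494, 0.296 to 0.806). Coq2, of ubiquinone synthesis, had 19 and 40 (fold 0.469, 0.257 to 0.829). Rabggta, a prenyltransferase subunit that acts on Rab proteins, had 74 and 45 counts (fold 1.62, 1.11 to 2.41), and Pggt1b, which adds geranylgeranyl groups, had 35 and 20 (fold 1.73, 0.971 to 3.16). Below the limit, the farnesyltransferase subunit genes Fnta and Fntb had 12 and 19 counts (fold 0.624, 0.276 to 1.35) and 7 and 16 (fold 0.432, 0.150 to 1.11). In the other direction, Pdss1 had 10 and 1 counts (fold 9.88, 1.41 to 429) and Pdss2 had 18 and 5 (fold 3.56, 1.27 to 12.3). The intervals of Fnta and Fntb held 1, and those of Pdss1 and Pdss2 lay above it on few reads. These genes below the limit were named after their values were seen.

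Elongation, further desaturation and activation of fatty acids had 6 of 19 genes at least 1.5-fold higher and 3 lower (22.0% and 22.9% of all genes), with a median of 0.41 (0.01 to 0.98). Scaled by total counts, that median was 0.08 (-0.32 to 0.66), beside -0.34 for all genes. Elovl4, an elongase of very long chains, had 64 and 14 counts (fold 4.52, 2.51 to 8.72). Fads2, a desaturase of polyunsaturated fatty acids, had 53 and 19 (fold 2.76, 1.60 to 4.93). Mid1ip1, which activates acetyl-CoA carboxylase, had 27 and 55 (fold 0.485, 0.294 to 0.782). Lpin1, a phosphatidate phosphatase, had 19 and 35 (fold 0.536, 0.29 to 0.964). Tecr, a reductase of chain elongation, named after its values were seen, had 119 and 185 (fold 0.635, 0.50 to 0.804).

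Fatty acid oxidation, the opposing pathway, had 3 of 14 genes at least 1.5-fold higher and 2 lower (22.0% and 22.9% of all genes), with a median of 0.24 (-0.34 to 0.80). Cpt1a, which admits fatty acids to mitochondria, had 71 and 19 counts (fold 3.69, 2.20 to 6.49). Decr1, needed for unsaturated chains, had 17 and 39 (fold 0.431, 0.228 to 0.779), and Acadm, the medium-chain dehydrogenase, had 31 and 53 (fold 0.578, 0.359 to 0.917). Cpt1a was thus higher, and Decr1 and Acadm lower, beyond counting error, but Cpt1a and Decr1 reached 20 counts in 1 library only. Among the genes named from the 5 lists, Abcg1, Aup1, Coq2, Elovl4, Fads2 and Lpin1 also passed the limit through 1 library alone. For all of these a difference was built into their selection. Cpt1a, Decr1 and Acadm were named as extremes of their list, and for 10 of its 14 genes the interval of the fold held 1. The difference between any of the 5 lists and the synthesis genes was not tested.

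**Figure D4:**
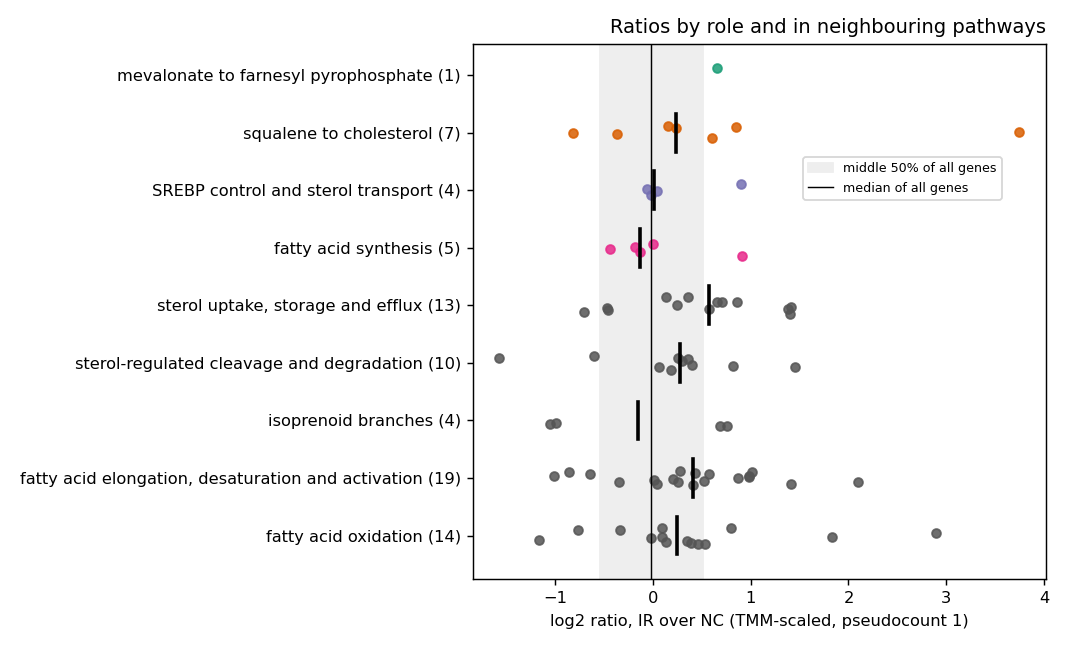
Log2 ratio of IR over NC (TMM-scaled, pseudocount 1) for each gene that averaged at least 20 counts, by role of the synthesis genes (coloured) and for 5 neighbouring lists (grey points), with the number of genes in brackets, thick bars at list medians and the shaded band for the middle 50% of all genes. Most synthesis genes lie in or near the band, and Tm7sf2 is the farthest point, at 3.75.

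Promoter sequence was compared because the SREBPs act through short DNA elements together with the factor NF-Y, which binds CCAAT. Windows from 250 bases before to 50 after a start site were taken from RefSeq (GRCm38.p6), which gave 29 windows for 21 of the 27 genes. Fdps, Fdft1, Sqle, Stard4, Scd1 and Scd2 had no window and were not searched. A CCAAT match on either strand was present for 18 of the 21 genes (85.7%), against 42.5% of the 11035 table genes with windows (13977 of them) and 41.1% of all 27025 symbols. The synthesis genes without a match were Acaca, Acat2 and Scap. Of the 38 matches 28 were on the reverse strand, read as ATTGG, and 27 lay within 150 bases upstream. The classical sterol regulatory element TCACNCCAC was found for 1 of the 21 genes, Hmgcs1, and for 1.48% of table genes. Other forms of the element were not sought. The matches are letters in a window and not shown to be bound. Genes with a CCAAT match lay on both sides of a log2 ratio of 0. Those without one were too few to place: Acaca was at -0.44 and Scap at 0.04, and Acat2 was below the limit.

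The 250 bases before the start are shown for Hmgcs1, the sole searched gene with both motifs, and for Fasn, which had a lower point value in IR and holds overlapping CCAAT matches. Capitals mark the matches: ATTGG or CCAAT, and in Hmgcs1 also TCACCCCAC. The Hmgcs1 window is chr13:119690101-119690350 (plus strand) and the Fasn window chr11:120824548-120824797 (minus strand, printed 5′ to 3′), which lies inside the longest RefSeq model of that gene.
Hmgcs1: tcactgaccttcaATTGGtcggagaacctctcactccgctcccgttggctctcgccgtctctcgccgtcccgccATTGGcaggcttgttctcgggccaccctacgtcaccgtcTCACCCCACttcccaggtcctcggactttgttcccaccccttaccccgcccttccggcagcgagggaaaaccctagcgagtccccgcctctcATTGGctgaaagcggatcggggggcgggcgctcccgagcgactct
Fasn: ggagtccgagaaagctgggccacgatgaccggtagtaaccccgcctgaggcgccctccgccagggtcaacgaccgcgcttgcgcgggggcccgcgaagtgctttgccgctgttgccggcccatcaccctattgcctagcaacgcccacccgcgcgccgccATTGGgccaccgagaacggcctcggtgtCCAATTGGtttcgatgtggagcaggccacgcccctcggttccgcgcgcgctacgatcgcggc

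**Figure D5:**
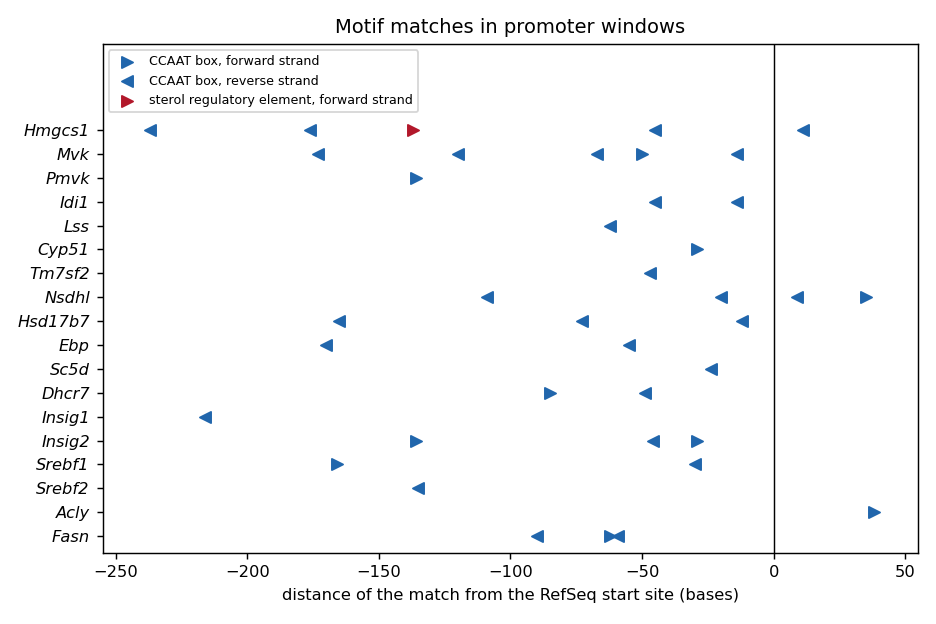
Distance in bases of each CCAAT match (blue) and of the sterol regulatory element (red) from the RefSeq start site at 0, for the 18 synthesis genes with a match, with arrowheads for the strand. Most matches lie within 150 bases upstream and point left, the reverse strand.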

How the data were processed

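Ribosome footprints were counted in 2 libraries of mouse lung fibroblasts, 1 labelled IR and 1 NC, grouped by sample title. The deposited values are whole-number counts of mapped reads per gene, per the file headers. HTSeq 0.9.1, TopHat2, Bowtie, cutadapt 1.9.3, DESeq2 and edgeR are listed with mm10, per the submitters' processing notes, which state no order. The sources used here do not give the annotation release, strand setting, footprint lengths or treatment of multiply matching reads, so overlapping genes and near-copies are uncertain. The 2 further columns of the table, of edgeR log CPM, were not used.

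Counts were scaled with TMM factors (edgeR 4.0.16, R 4.3.3), 0.890 for IR and 1.12 for NC. Log2 ratios carry a pseudocount of 1 and were computed for genes that averaged at least 20 counts, whereas folds carry none. Fold intervals come from the exact (Clopper-Pearson) 95% interval of the IR share of a gene's counts, and a count of 0 was bounded at 3 counts per library (3.79 CPM in IR, 3.84 CPM in NC). Ratios of 2 folds, which were not among the planned results, have an exact conditional interval. With 1 library per group no p-value is given. The ratio and interval code was tested on simulated counts. All 27 synthesis genes are described, and of each neighbouring list the 2 highest and 2 lowest ratios, apart from genes not reported here. The genes and lists were chosen with earlier results of these data known. Listed genes without a row are not analysed here, older symbols were matched through RefSeq (GRCm38.p6) for the neighbouring lists, and levels were not compared between genes because coding lengths were not used here. Matched mRNA was not analysed here. Further work used scipy 1.17.1, numpy 2.4.6 and pandas 2.3.3 in Python 3.11.15, with figures from matplotlib 3.10.9.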

Additional observations from a re-analysis of the deposited data

How the results depend on the processing

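Scaling by total counts moved most summaries: the median log2 ratio of the synthesis genes was -0.28, of the control genes -0.31 and of the fatty acid enzymes -0.47, with 1 gene at least 1.5-fold higher and 3 lower. The folds of the sums were then 1.13 (0.961 to 1.33) for sterol enzymes, 0.902 (0.721 to 1.13) for control genes and 0.970 (0.850 to 1.11) for fatty acid enzymes. Medians of the neighbouring lists were 0.23 for sterol uptake, -0.05 for cleavage and degradation and -0.48 for isoprenoid branches under that scaling. Those of fatty acid elongation and oxidation were 0.08 and -0.09. Each lay within the interval of its list under TMM scaling. A limit of 100 mean counts left Scd1 alone, with a median of 0.91, 1 gene higher and 0 lower, and a limit of 1 count in both libraries gave 3 genes lower. The sum of the sterol enzymes had a fold of 1.19 (0.984 to 1.44) without genes that overlap another and of 1.19 (1.001 to 1.41) without Tm7sf2. That of the fatty acid enzymes was 0.889 (0.745 to 1.06) without Scd1. Leaving out Tm7sf2 or Scd1 was chosen after seeing the data. Of 85 ratios of single genes under other scalings and pseudocounts, 84 stayed within the counting interval, the exception being Scd1 at 0.57 by total counts. Those intervals are wide for genes with few counts, so staying within them is a weak criterion. By total counts Hmgcs1 (0.33), Sqle (0.27), Dhcr7 (0.53) and Srebf1 (0.578) were, like Scd1, no longer 1.5-fold higher, whereas Tm7sf2 (3.45) was. DESeq2 1.42.0 size factors, TMM without the 10 most abundant genes, a pseudocount of 0.5, a limit of 10 counts and removal of the trend with count moved no median or fold of a sum out of its interval. Numbers of genes past 1.5-fold have no interval. Removal of the trend gave 5 higher and 1 lower, with Sqle at 0.54 and Dhcr7 at 1.05, and a limit of 10 counts gave 7 higher and 1 lower. The alternative with the deposited log CPM values was not run. No paired analysis was possible because each group had 1 library. Depth is also a limit: 10 of the 27 genes had fewer than 20 mean counts.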
